A study of Mus musculus with 2 samples.

Results

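Mir126a, Mir221, Mir222 and Mir210 are 4 mouse miRNA genes known from blood vessels and from the response to low oxygen. They were chosen by gene symbol, and all 4 were found among the 1973 miRNA genes counted. The libraries hold small RNA under 30 nucleotides (nt) from the stomachs of 2 newborn B6NCrl mice, taken on postnatal day 0. These 2 pups of 1 dam form a single untreated group, and their sex was not collected. No condition was contrasted, so the questions are how strongly the stomach expresses each gene, how the genes compare with each other, and how far the littermates differ.

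A miRNA is cut from the arms of a hairpin RNA and represses messenger RNAs that pair with its seed, bases 2 to 8 of the mature strand. Mir126a lies in Egfl7, a gene of endothelial cells, and its product supports vessel integrity and the response of endothelium to vascular endothelial growth factor. Mir221 and Mir222 are neighbours on the X chromosome. Their products restrain the KIT receptor and the cell cycle inhibitor p27, and act on both endothelium and vascular smooth muscle. Mir210 is a transcriptional target of hypoxia-inducible factor, and its product lowers mitochondrial respiration through the iron-sulphur cluster assembly protein ISCU.

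The mature sequences define which of the genes can be read together, so they are given first, 5′ to 3′ with the seed in capitals, from RefSeq on GRCm38.p6. For Mir126a and Mir222 that source lists the 3p strand only, so the seeds of their 5p arms were not examined.
mmu-miR-126a-3p: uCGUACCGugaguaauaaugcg
mmu-miR-221-3p: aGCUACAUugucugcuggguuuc
mmu-miR-222-3p: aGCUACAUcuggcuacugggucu
mmu-miR-221-5p: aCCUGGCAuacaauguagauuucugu
mmu-miR-210-3p: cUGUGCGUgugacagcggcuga
mmu-miR-210-5p: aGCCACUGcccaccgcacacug

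The 3p strands of Mir221 and Mir222 carry the same seed. Aligned from the 5′ end without gaps, they had the same base at 11 of 23 positions and were identical over the first 8 bases. A full-length read of one strand therefore differs from the other past the seed. Among 1738 mature mouse sequences in the RefSeq table, this seed was found in 1 further gene, Mir1928, which had 0 counts in both libraries. Those zeros allow up to 0.672 counts per 1000000 in pup 1 and 0.868 in pup 2. The seeds of miR-126a-3p, miR-210-3p, miR-210-5p and miR-221-5p occurred in no other mature sequence of that table.

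The hairpins are the features over which reads were counted, and reads from either arm count towards the same gene. Capitals mark the mature strands listed above.
Mir126a hairpin: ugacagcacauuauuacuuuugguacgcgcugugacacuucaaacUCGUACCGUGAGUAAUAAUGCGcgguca
Mir221 hairpin: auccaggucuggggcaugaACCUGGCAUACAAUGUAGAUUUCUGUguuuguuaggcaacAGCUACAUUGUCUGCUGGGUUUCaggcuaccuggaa
Mir222 hairpin: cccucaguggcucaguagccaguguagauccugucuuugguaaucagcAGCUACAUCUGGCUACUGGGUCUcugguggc
Mir210 hairpin: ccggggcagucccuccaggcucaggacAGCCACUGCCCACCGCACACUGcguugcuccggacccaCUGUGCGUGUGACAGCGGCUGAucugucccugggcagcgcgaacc

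Reads that map to several places were left out of the gene counts, which lowers genes with near-identical copies. None of the 4 hairpins shared 20 or more consecutive nt with a hairpin elsewhere in the annotation. Their longest such stretch was 11 nt for Mir126a and 12 nt for Mir221, Mir222 and Mir210. In base composition the hairpins spread widely. G and C made up 45.2% of Mir126a, 47.4% of Mir221, 54.4% of Mir222 and 69.1% of Mir210, which put Mir210 above 1818 of 1894 annotated hairpins.

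Mir126a (ENSMUSG00000065540.1) is 73 nt long and occupies bases 26591357 to 26591429 of chromosome 2, plus strand (GRCm38). It falls in intron 7 of the 10-exon coding transcript Egfl7-201. Of 9 Egfl7 transcripts that span the hairpin, 7 are coding and have it in an intron, and 1 transcript, of the retained-intron type, has it in an exon. No coding sequence or UTR of Egfl7 overlaps it. The hairpin also lies in an intron of the single transcript of Gm20532, a coding gene on the same strand. Mir126b is annotated over the same bases on the minus strand.

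Mir221 (ENSMUSG00000065422.1) is 95 nt long and occupies bases 19146294 to 19146388 of chromosome X, minus strand. Mir222 (ENSMUSG00000065471.1) is 79 nt long, on the same strand at 19146893 to 19146971, so that 504 bases separate the pair. Neither lies inside another annotated gene, and the nearest protein-coding gene, Tex13c3, is 332448 bases from Mir222. Mir210 (ENSMUSG00000065551.1) is 110 nt long and occupies bases 141221384 to 141221493 of chromosome 7, minus strand. It also lies between genes, 2725 bases from Rassf7 and 7290 bases from Phrf1, both coding genes on the plus strand.

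**Figure D1:**
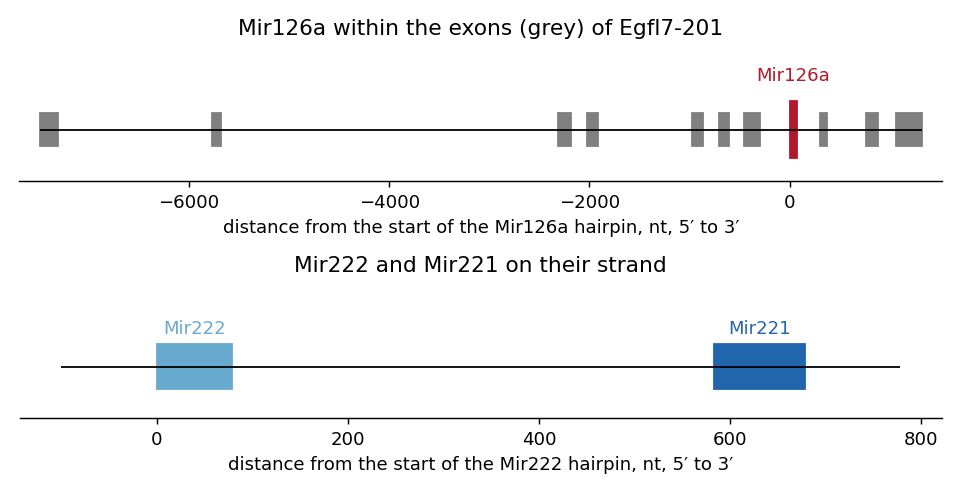
Position of the hairpins relative to their surroundings, to scale, with distance in nt on the horizontal axes. The upper panel shows Mir126a (red) between the seventh and eighth of the 10 exons of Egfl7-201 (grey), and the lower panel shows Mir222 and Mir221 with the 504 bases between them.

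Own-strand counts summed to 4463355 in pup 1 and 3454655 in pup 2, and levels are given per 1000000 of these (CPM), with exact 95% binomial intervals that cover counting error only. Of the reads in the tables, 8.70% in pup 1 and 8.94% in pup 2 were unmapped, and 26.0% and 25.7% mapped to several places. Detection meant 10 or more counts in both libraries, which 305 of the 1973 genes (15.5%) and all 4 genes described here reached. The lists of marker genes for stomach tissue were chosen with earlier results of these data known, so their presence is no independent check. The squamous forestomach list (Mir203, Mir205 and Mir31) held 11.2% and 11.7% of counts in pup 1 and pup 2. Smooth muscle genes (Mir143 and Mir145a) held 25.6% and 23.9%, and glandular epithelial genes (Mir192, Mir215, Mir194-1 and Mir194-2) 0.816% and 0.769%. Striated muscle genes, with 3 of 5 detected, held 0.0182% and 0.0373%.

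Mir126a dominated the 4 genes. It had 158999 counts in pup 1 and 118940 in pup 2, which is 35623 CPM (interval 35451 to 35796) and 34429 CPM (34237 to 34622). These intervals did not overlap, and the mean was 35026 ± 844 CPM (SD, n = 2). Mir126a alone supplied 96.5% of the counts of the 4 genes in pup 1 and 96.01% in pup 2. It ranked 5 among all miRNA genes in each library, at 211-fold the median detected gene in CPM.

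Mir210, the low-oxygen gene, had 3631 counts in pup 1 and 2823 in pup 2. Its levels of 814 CPM (787 to 840) and 817 CPM (787 to 848) had overlapping intervals. The mean was 815 ± 2.58 CPM (SD, n = 2), and the gene ranked 90 in pup 1 and 93 in pup 2. Counts from whole tissue cannot tell fewer cells with a miRNA from less of it per cell, here or for the other genes.

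Mir221 had 1391 counts in pup 1 and 1454 in pup 2, although the library of pup 2 was the smaller one. Its levels were 312 CPM (295 to 328) and 421 CPM (399.5 to 443), and their intervals did not overlap. The mean was 366 ± 77.2 CPM (SD, n = 2). This spread, 21.1% of the mean, was the widest of the 4 genes, against 0.316% for Mir210, 2.41% for Mir126a and 11.5% for Mir222. These spreads hold for CPM, which are scaled by total counts. With TMM, the scaling of the pup comparison below, Mir221 again had the largest absolute log2 ratio of pup 1 over pup 2 (-0.33). The ratio was 0.15 for Mir126a, -0.13 for Mir222 and 0.10 for Mir210, so the order of the other genes depends on the scaling.

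Mir222 was the lowest of the 4, with 732 counts in pup 1 and 667 in pup 2. Its levels were 164 CPM (152 to 176) and 193 CPM (179 to 208), again with pup 2 above pup 1 and no overlap of the intervals. The mean of 179 ± 20.6 CPM (SD, n = 2) put it at rank 148 of all genes, with 157 of the 305 detected genes below it. It therefore stood near the middle of the detected genes, at 1.08-fold their median.

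**Figure D2:**
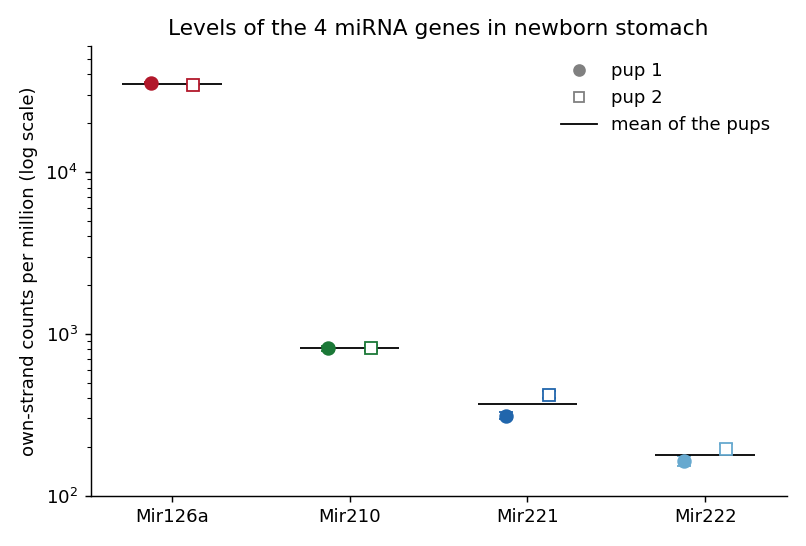
Own-strand CPM (log scale) of the 4 genes in pup 1 (filled circles) and pup 2 (open squares), with exact 95% counting intervals as error bars, most of them smaller than the symbols, and the mean as a line. Mir126a stands at 35026 CPM on average and the other genes between 179 and 815 CPM, and Mir221 has the widest gap between the pups.

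**Figure D3:**
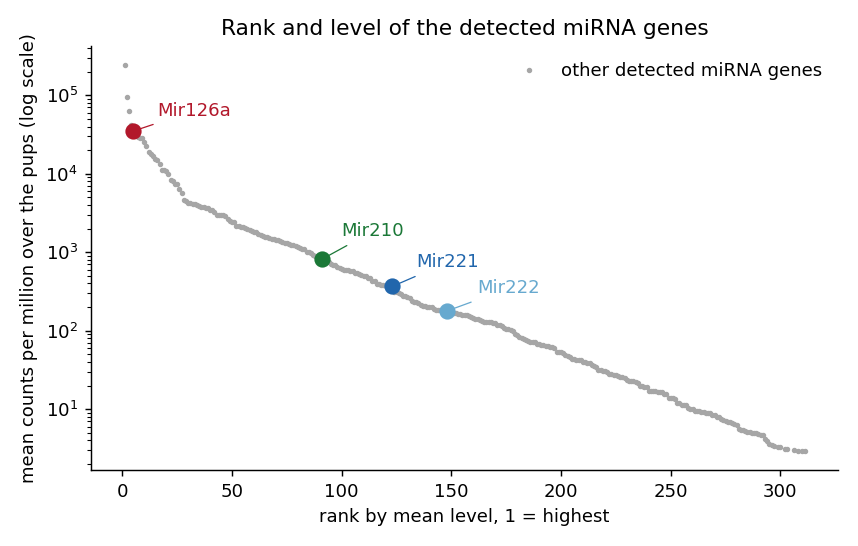
Mean CPM over the pups (log scale) against rank among all miRNA genes, for the 305 detected genes (grey) and the 4 genes in colour. Mir126a lies on the steep left end at rank 5, while Mir210, Mir221 and Mir222 lie at ranks 91, 123 and 148.

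The order Mir126a, Mir210, Mir221, Mir222 was the same in both pups. The hairpins differ in length and read lengths were not analysed here, so ratios between genes are given both on counts and per nt of hairpin. The mature strands listed above measure 22 to 26 nt in hairpins of 73 to 110 nt. The yield of such short RNA need not follow hairpin length, so values per nt are an alternative view and not a correction. How readily each RNA entered a library was not measured. The ratios are therefore ratios of counts, and neither the intervals nor the likeness of the pups covers such differences between genes. Mir126a exceeded Mir210 43.8-fold on counts in pup 1 (interval 42.4 to 45.3) and 42.1-fold in pup 2 (40.6 to 43.7). Per nt of hairpin the ratios were 66.0 and 63.5. The mean log2 count ratio of 5.42 ± 0.04 (SD, n = 2) was the most even of the 6 pairs.

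Mir210 exceeded Mir221 2.61-fold on counts in pup 1 (2.45 to 2.78) and 1.94-fold in pup 2 (1.82 to 2.07), or 2.25-fold and 1.68-fold per nt. The intervals did not overlap, so the balance of these genes differed between the libraries beyond counting error. The mean log2 count ratio was 1.17 ± 0.30 (SD, n = 2), larger than its spread. Mir210 over Mir222 was 4.96 in pup 1 (4.58 to 5.38) and 4.23 in pup 2 (3.89 to 4.61) on counts, where the intervals did overlap.

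Within the X-linked pair, Mir221 exceeded Mir222 1.90-fold on counts in pup 1 (1.74 to 2.08) and 2.18-fold in pup 2 (1.99 to 2.39). Per nt the ratios were 1.58 and 1.81. The counting intervals overlapped, and the mean log2 count ratio of 1.03 ± 0.14 (SD, n = 2) exceeded its spread. Mir126a over Mir221 was 114 in pup 1 (interval 108 to 121) and 81.8 in pup 2 (77.7 to 86.2) on counts. Mir126a over Mir222 was 217 in pup 1 (202 to 234) and 178 in pup 2 (165 to 193). For neither of these ratios did the intervals of the pups overlap. No exact permutation test over 2 libraries can go below p = 0.5, and the ratios are therefore read against their SD and counting intervals.

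Placed per nt of hairpin among all genes, Mir126a ranked 4, at 479.8 ± 11.6 CPM per nt (SD, n = 2). The gene above, Mir99a, stood at 969.95 ± 28.8 CPM per nt, a gap larger than either SD. Mirlet7g, the gene below, stood at 477 ± 22.9 CPM per nt, which differed from Mir126a by less than the spread between pups. Without division by length Mirlet7g stood above Mir126a, at 42007 ± 2018 CPM. Mir210 ranked 102, at 7.41 ± 0.0234 CPM per nt. Its neighbours Mir194-1 at 7.45 ± 1.13 and Mir467d at 7.15 ± 0.317 CPM per nt did not differ from it beyond their spread, and both share at least 20 nt with another hairpin.

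Mir221 ranked 121 per nt, at 3.86 ± 0.813 CPM per nt. It lay between Mir341 (3.97 ± 0.564 CPM per nt) and Mir125b-1 (3.82 ± 0.452), within the spread of both. Mir222 ranked 144, at 2.26 ± 0.260 CPM per nt, between Mir496a (2.32 ± 0.639) and Mir181b-2 (2.24 ± 0.673), again within the spread. Mir125b-1 and Mir181b-2 share at least 20 nt with another hairpin, so their levels can be understated.

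The pups were compared gene by gene with a two-sided exact binomial test against TMM effective library sizes, Benjamini-Hochberg adjusted over the 305 detected genes. Calls required both a ratio of 1.5 or more, in either direction, and an adjusted p below 0.05. The test sets 1 library against another and covers counting error only. It called 9 genes (2.95%), and 0 of the 4 genes described here. At an unadjusted p under 0.05 and any ratio 3 of the 4 genes passed, beside 55.4% of all 305. By edgeR's exact test with the common dispersion of the 2 libraries 0 of 4 did, beside 5.25% of all, so that neither share sets the 4 genes apart. That dispersion was estimated with the pups as replicates, so the difference tested also sets the error. The edgeR test is therefore bound to pass few genes and cannot show that the pups are alike.

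Depth made small ratios pass the adjusted p alone. This held for 159 of 305 genes (52.1%) and for 3 of the 4, a share that says little about these genes. Mir221 had the largest difference of the 4, a log2 ratio of pup 1 over pup 2 of -0.33 (interval -0.44 to -0.22; adjusted p = 4.3e-09, exact binomial test). It was thus higher in pup 2. Of 51 other detected genes with a mean CPM within 2-fold of Mir221, 10 had a larger absolute log2 ratio, and the median of the 51 was 0.16.

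Mir222 had a log2 ratio of -0.13 (interval -0.29 to 0.02; adjusted p = 0.15, exact binomial test), which did not pass. Its interval and that of Mir221 overlap. Beside this lean towards pup 2, the skeletal muscle gene Mir206, of the striated muscle list, had 435 counts in pup 1 and 914 in pup 2. It was called higher in pup 2, with a log2 ratio of -1.34 (adjusted p = 3.7e-60, exact binomial test), and was the 1 gene that edgeR's common dispersion also called. All 3 detected genes of that list were higher in pup 2 by value, but only Mir206 was called. Higher in pup 2 by value were also 160 of all 305 detected genes, 2 of 3 squamous genes and 3 of 4 white blood cell genes. The part of any of these cell types in the values of Mir221 and Mir222 was not tested. For Mir126a the log2 ratio was 0.15 (interval 0.14 to 0.16; adjusted p = 8.0e-166, exact binomial test), a difference of 1.11-fold towards pup 1. Of 10 other genes with a mean CPM within 2-fold of Mir126a, 9 also had an adjusted p under 0.05 in that test and 4 had a larger absolute log2 ratio.

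Mir210 had a log2 ratio of 0.10 (interval 0.03 to 0.17; adjusted p = 0.017, exact binomial test). Scaled by total own-strand counts in place of TMM, its log2 ratio was -0.01 (adjusted p = 0.94, exact binomial test), so neither its direction nor its p held. Over all 6 alternatives its adjusted p ran between 0.0023 (DESeq2 size factors) and 0.999 (edgeR's common dispersion). The latter takes the pups as replicates, so a high p is built in for most genes. Scaling by totals puts the median log2 ratio of all detected genes at -0.13, against -0.02 with TMM. On it Mir126a kept the higher value in pup 1 (log2 ratio 0.05), and Mir221 (-0.43) and Mir222 (-0.24) the higher value in pup 2. The adjusted p of Mir222 was 0.0065 there, by the exact binomial test, and reached 0.999 with edgeR's common dispersion, the range over its alternatives.

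**Figure D4:**
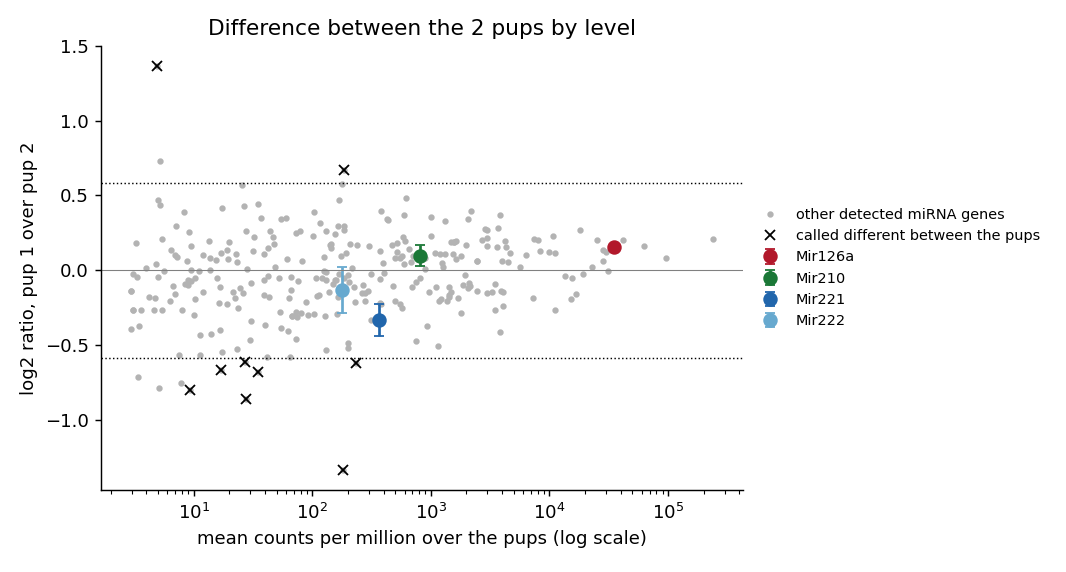
Log2 ratio of pup 1 over pup 2 after TMM scaling against mean CPM (log scale) for the 305 detected genes, with the 4 genes in colour and their exact 95% counting intervals. Dotted lines mark a ratio of 1.5 either way, crosses mark the 9 called genes, and all 4 genes lie inside the lines, with Mir221 at -0.33 the farthest from 0.

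Other miRNA genes known from endothelium or vessel growth gave a frame for these levels. Of 25 such genes listed, 22 were analysed and 22 were detected, while Mir24-1, Mir18a and Mir378a were not found under these symbols. Among the genes counted was Mir18 but no Mir18a. Mir18 was detected at 1641 ± 73.9 CPM (SD, n = 2) and is not part of the list's values. Mir126a, Mir210, Mir221 and Mir222 together held 3.69% of counts in pup 1 and 3.59% in pup 2, and the 22 genes of the list held 10.8% and 10.9%. Per nt of hairpin, 0 of the 22 stood above Mir126a, 13 above Mir210, 15 above Mir221 and 16 above Mir222. On CPM these numbers were the same. The share of the list counts 9 genes that share at least 20 nt with another hairpin, and without those 9 it was 5.48%.

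The highest of that list were Mir23a (25370 ± 1203 CPM, SD, n = 2) and Mir23b (22885 ± 900.3 CPM), both of which share such a stretch. Mir10a, which in zebrafish guides the behaviour of angiogenic tip cells, stood at 18114 ± 1479 CPM. Mir130a, whose product represses antiangiogenic homeobox genes in human endothelial cells, stood at 15617 ± 1180 CPM, Mir17 of the proliferation-linked miR-17~92 cluster at 7327 ± 1042 CPM, and Mir100 at 4300.4 ± 116 CPM. None of the 22 was called different between the pups, beside 2.95% of all detected genes. At any ratio 16 of the 22 had an adjusted p under 0.05 (exact binomial test), beside 52.1% of all. With TMM 14 were higher in pup 1 and 8 in pup 2 by value, beside 145 and 160 of all 305. Scaled by total counts the numbers were 11 and 11. The median log2 ratio of the 22 was 0.08 with TMM, beside -0.02 for all 305 detected genes. With totals it was -0.02, beside -0.13 for all 305.

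Of 23 miRNA genes listed as responsive to low oxygen, 22 were analysed and 20 were detected, and 6 of the analysed genes are also on the vascular list. Mir210 held 0.0815% ± 0.000258 of counts (SD, n = 2), beside 12.7% in pup 1 and 12.8% in pup 2 for the 22 genes of the list. The list's share was 7.31% without the 16 genes that share a stretch. Per nt of hairpin 9 of the 22 stood above Mir210 and 0 above Mir126a, and on CPM 8 and 0. The highest were Mir21a (31266 ± 1682 CPM, SD, n = 2), Mir26b (28538 ± 463 CPM), Mir23a and Mir23b as given, Mir322, the mouse counterpart of human MIR424 (10751 ± 675 CPM), and Mir27b (2977 ± 165 CPM). None of the 20 was called different between the pups, beside 2.95% of all detected genes. At any ratio 14 of the 20 had an adjusted p under 0.05 (exact binomial test), beside 52.1% of all. With TMM 11 were higher in pup 1 and 9 in pup 2 by value, beside 145 and 160 of all 305. Scaled by total counts they were 9 and 11. The median log2 ratio of the 20 was 0.04 with TMM and -0.06 with totals, where that of all detected genes was -0.13.

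miR-126 is also known from blood-forming cells, and blood can be present in any dissected tissue. Of 4 red blood cell genes listed, 3 were analysed, without Mir486b, and 2 were detected. The red blood cell list held 0.00408% of counts in pup 1 and 0.00365% in pup 2. Its defining gene Mir451a had 92 and 67 counts. Of 5 white blood cell genes listed, 4 were analysed and detected, and Mir142 was not analysed, so the share of the list can be understated. It held 0.0624% in pup 1 and 0.0647% in pup 2. The myeloid gene Mir223 led (470 ± 15.4 CPM, SD, n = 2), with Mir146 at 72.6 ± 13.6 CPM. Both on CPM and per nt of hairpin Mir126a stood above each of these 7 analysed genes. None was at 0 in both libraries, and how much of the Mir126a signal comes from blood was not tested. No endothelial gene other than Mir126a was on the marker list, and messenger RNAs such as that of Egfl7 were not measured, so the endothelial label of the group rests on what is known of Mir126a.

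**Figure D5:**
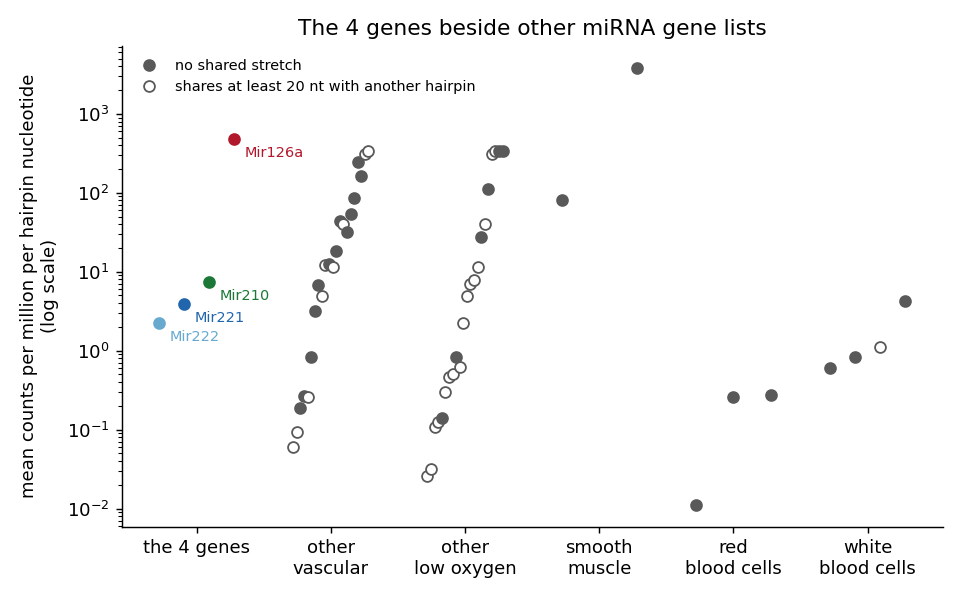
Mean CPM per nt of hairpin (log scale) for the 4 genes and for the analysed members of 5 other lists, ordered by CPM within each list. Open symbols share at least 20 nt with another hairpin. Mir126a, at 479.8 CPM per nt, stands above all members of the other vascular, low-oxygen and blood lists, and below the smooth muscle gene Mir143. The same holds on CPM.

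The pattern over the pups most like that of each gene was sought as the smallest Euclidean distance over log2 CPM in the 2 libraries, which 2 points make a measure of level and pup difference only. Mir210 had the closest partners, Mir337 (distance 0.0268) and Mir15b (0.108). Mir337 stood at 827 CPM in pup 1 and 824 in pup 2. For Mir222 they were Mir187 (0.0862) and Mir328 (0.131), and for Mir221 Mir7b (0.102) and Mir16-2 (0.109), of which Mir16-2 shares 20 or more nt with another hairpin. Mir7b stood at 334 CPM in pup 1 and 418 in pup 2. Its lean towards pup 2, like that of Mir221, follows from the choice of partners by these same values. Mir126a had no partner as close, with Mir21a at a distance of 0.259 and Mir429 at 0.329. Few genes lie at its level, however. Within 2-fold of its mean CPM were 10 other detected genes, against 51 for Mir210, 51 for Mir221 and 55 for Mir222.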

How the data were processed

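Small RNA libraries from the stomachs of 2 littermates were analysed. The authors deposited raw read counts per miRNA gene, without normalization, in 1 table per library. The accompanying descriptions name mm10 and annotation M4, while the sources used here give neither aligner nor counter. The strand column with the larger total (97.7% and 97.8% of gene counts) was used. Unmapped, multiply mapped and unassigned reads stayed out of totals. Of 1973 identifiers, 1894 matched GENCODE M21 (GRCm38) without version, and the other 79 held 0 and 1 counts. CPM, intervals and tests were computed with Python 3.11.15, scipy 1.17.1, pandas 2.3.3 and numpy 2.4.6, and figures with matplotlib 3.10.9. Scaling used edgeR 4.0.16 (R 4.3.3) and DESeq2 1.42.0. PCR reads are not independent molecules.

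The 4 genes and the lists were chosen with earlier results of these data known. Named besides the 4 genes are their 2 nearest patterns each, up to 6 detected genes with the highest mean of the vascular and low-oxygen lists, up to 2 of the marker lists, and genes sharing a seed. The neighbours per nt and further marker list members were named after their values were seen. The alternatives were other scalings, denominators, count minimums, strands and errors.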

Additional observations from a re-analysis of the deposited data

Results flagged for a closer look

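The tables also hold counts on the strand opposite to each gene, which entered only the alternative that counts both strands. Opposite to Mir126a there were 28 counts in pup 1 and 26 in pup 2, above the limit of 3 counts that a count of 0 allows. They made up 0.0176% and 0.0219% of the counts at the locus. Mir126b is annotated there on the opposite strand and has no row of its own in the tables, so its reads would appear among these counts. Of the 20 most abundant genes 4 had any opposite-strand count, and Mir126a had the highest opposite share of them. Opposite to Mir210, Mir221 and Mir222 there were 0 counts in both libraries.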

How the results depend on the processing

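The order of the 4 genes was the same in both pups under each of the 4 alternative ways of computing levels. With every read in the table as denominator, Mir126a stood at 21773, Mir210 at 507, Mir221 at 228 and Mir222 at 111 per 1000000. Without Mir143 in the total they stood at 46215, 1076, 482 and 235 CPM. Scaled per nt of hairpin Mir210 stood at 554 and Mir221 at 288 per 1000000, and on counts of both strands Mir210 at 797. Per nt of hairpin the log2 ratios were 6.02 for Mir126a over Mir210, 6.98 for Mir126a over Mir221, 1.72 for Mir210 over Mir222 and 0.76 for Mir221 over Mir222. Scaling by own-strand totals called 16 genes between the pups, 15 of them higher in pup 2, and turned the log2 ratio of Mir210 to -0.0064, and edgeR's common dispersion called 1 gene. None of the 6 alternatives called any of the 4 genes. Counts of both strands gave list shares of 10.6% (vascular) and 12.5% (low oxygen), and leaving out genes that share a stretch gave 5.48% and 7.31%. No other alternative changed a direction or a call of these genes. Leaving out a pup gives the value of the other pup, as printed in the report. No paired analysis was possible because the samples form 1 group. Depth limits Mir222 most, at 732 and 667 counts.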
